A study of Mus musculus with 18 samples.

Results

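Integrins that bind extracellular matrix or adhesion ligands and pair outside the beta-2 family were followed in immune cells of atherosclerotic mouse arteries. They were taken by symbol from the table of gene counts, as 5 alpha chains (Itga4, Itga5, Itga6, Itga9 and Itgav) and 5 beta chains (Itgb1, Itgb3, Itgb5, Itgb7 and Itgb8). All 10 were found among 23337 symbols, and all 10 were among the 17143 genes that had enough counts to be tested. The set is not complete, and other chains outside beta-2 are given further on as a list. The cells came from digested carotid arteries and aortas of C57BL/6 mice of both sexes, 7 months old, that had eaten Western Diet for 5 months. By the labels all groups share the genotype Apoe-/- Cx3cr1GFP Cd11cYFP, and no group is labelled as healthy or as carrying Apoe. Apoe reads were counted in every library, at 1.81 to 57.0 CPM in 17 and at 208 CPM in YFP replicate 5, and where in the gene they lie was not tested. Live CD45+ cells were sorted by the reporters into GFP (GFP+ YFP-, n = 6 libraries), DP (both reporters, n = 4), YFP (GFP- YFP+, n = 5) and DN (neither, n = 3). GFP reports Cx3cr1, a chemokine receptor common on monocytes and on macrophages, and YFP reports Cd11c, the integrin alpha chain that Itgax encodes. RNA was amplified with a SMART-seq v4 kit, and the series title names macrophage subsets that migrate or dance in lesions.

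An integrin is a pair of one alpha and one beta chain that spans the membrane, holds matrix or another cell on the outside and, through talin and kindlin, is tied to actin on the inside. The beta-1 chain pairs with most of the alpha chains named here. With Itga5 it forms the main fibronectin receptor, with Itga6 a laminin receptor, and with Itga4 or Itga9 receptors for VCAM-1 and other ligands. Itgb7 pairs with Itga4 in lymphocytes that home to the gut and with Itgae in cells within epithelia. The alpha-v chain pairs with the beta-3 and beta-5 chains to bind vitronectin and, through the bridging protein MFG-E8, apoptotic cells, and with the beta-8 chain to activate latent TGF-beta. A chain without its partner is not a receptor, and transcripts do not give the amount of a pair at the cell surface.

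The promoters of 3 chains are shown, since Itga5 and Itgb5 are the members whose levels were most alike over the libraries, and Itgb7 was highest in the library in which those were lowest. The sequences are RefSeq's on build GRCm38.p6, 5′ to 3′ on the strand of the gene, from 250 to 11 bases before the annotated start. That is chr15:103366802-103367041 (minus strand) for Itga5, chr16:33829415-33829654 (plus strand) for Itgb5 and chr15:102231946-102232185 (minus strand) for Itgb7. Capitals mark the GC box GGGCGG and the PU.1 core GAGGAA, searched on both strands, so that CCGCCC and TTCCTC are marked as well.
Itga5: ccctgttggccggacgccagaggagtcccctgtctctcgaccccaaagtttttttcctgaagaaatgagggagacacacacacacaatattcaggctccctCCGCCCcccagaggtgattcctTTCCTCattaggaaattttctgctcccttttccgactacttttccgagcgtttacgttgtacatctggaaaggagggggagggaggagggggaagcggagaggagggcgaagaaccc
Itgb5: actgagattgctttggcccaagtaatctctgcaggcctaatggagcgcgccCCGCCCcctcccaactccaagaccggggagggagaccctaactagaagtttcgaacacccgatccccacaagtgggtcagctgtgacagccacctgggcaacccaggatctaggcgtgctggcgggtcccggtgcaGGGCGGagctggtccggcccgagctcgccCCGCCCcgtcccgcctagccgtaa
Itgb7: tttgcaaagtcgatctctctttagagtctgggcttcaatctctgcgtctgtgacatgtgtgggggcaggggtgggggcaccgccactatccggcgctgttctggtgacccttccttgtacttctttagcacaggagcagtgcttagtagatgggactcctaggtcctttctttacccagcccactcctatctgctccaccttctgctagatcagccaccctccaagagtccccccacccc
The Itga5 window held 1 GC box and 1 PU.1 core, the Itgb5 window 3 GC boxes, and the Itgb7 window neither motif. A GC box was found in 31.3% of 32851 promoter windows of this length, a PU.1 core in 22.3% and a TATA box, TATAAA, in 12.1%. RefSeq promoters were at hand for 8 of the 10 members, not for Itga6 and Itgb3. None of the 8 windows held a TATA box, 4 held a GC box (Itga4, Itga5, Itgb1 and Itgb5) and 2 a PU.1 core (Itga5 and Itgav). These matches describe letters and are not evidence of binding.

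Total counts ranged from 289166 in YFP replicate 6 to 27742113, with 9790946 the next lowest. Nothing in the labels ties replicates to separate mice. The p-values therefore measure only the spread between these libraries, which may be technical. Some libraries went against their labels in the genes that drive the reporters, given in CPM, counts relative to a library size scaled by TMM. Cx3cr1 stood at 9.43 and 0.427 CPM in the libraries labelled DP replicates 4 and 5, against 92.7 and 118 CPM in DP replicates 1 and 2. It stood at 142 and 134 CPM in the libraries labelled DN replicates 3 and 6, against 4.09 CPM in DN replicate 1. Itgax went against the labels of the same libraries. It stood at 38.6 and 47.8 CPM in those labelled DP replicates 4 and 5, against 456 and 311 CPM in DP replicates 1 and 2. In those labelled DN replicates 3 and 6 it stood at 332 and 297 CPM, against 11.4 CPM in DN replicate 1. YFP replicate 6, the shallow library, also went against its label, with Cx3cr1 at 104 CPM, inside the GFP range of 80.9 to 165 CPM. Its Itgax level, 89.6 CPM, was below all GFP libraries (107 to 191 CPM). Itgax in YFP replicate 1, 175 CPM, was inside that range as well. Directions that involve DP or DN rest in part on the 4 DP and DN libraries, and those that involve YFP in part on YFP replicate 6. Without all 5 libraries the edgeR test also called 0 members in every comparison, a fit chosen after seeing the data that leaves DN replicate 1 alone in its group. Ptprc, which encodes CD45, lay between 439 and 1248 CPM in all libraries. The macrophage and monocyte list (9 markers, such as Lyz2 and C1qb, a lysozyme and a complement chain) was detected with all of its markers in DN replicate 1, but summed to 1891 CPM there, against 9341 to 117277 CPM in the other 17 libraries. In bulk RNA, fewer cells of a type and less RNA per cell cannot be told apart.

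**Figure D1:**
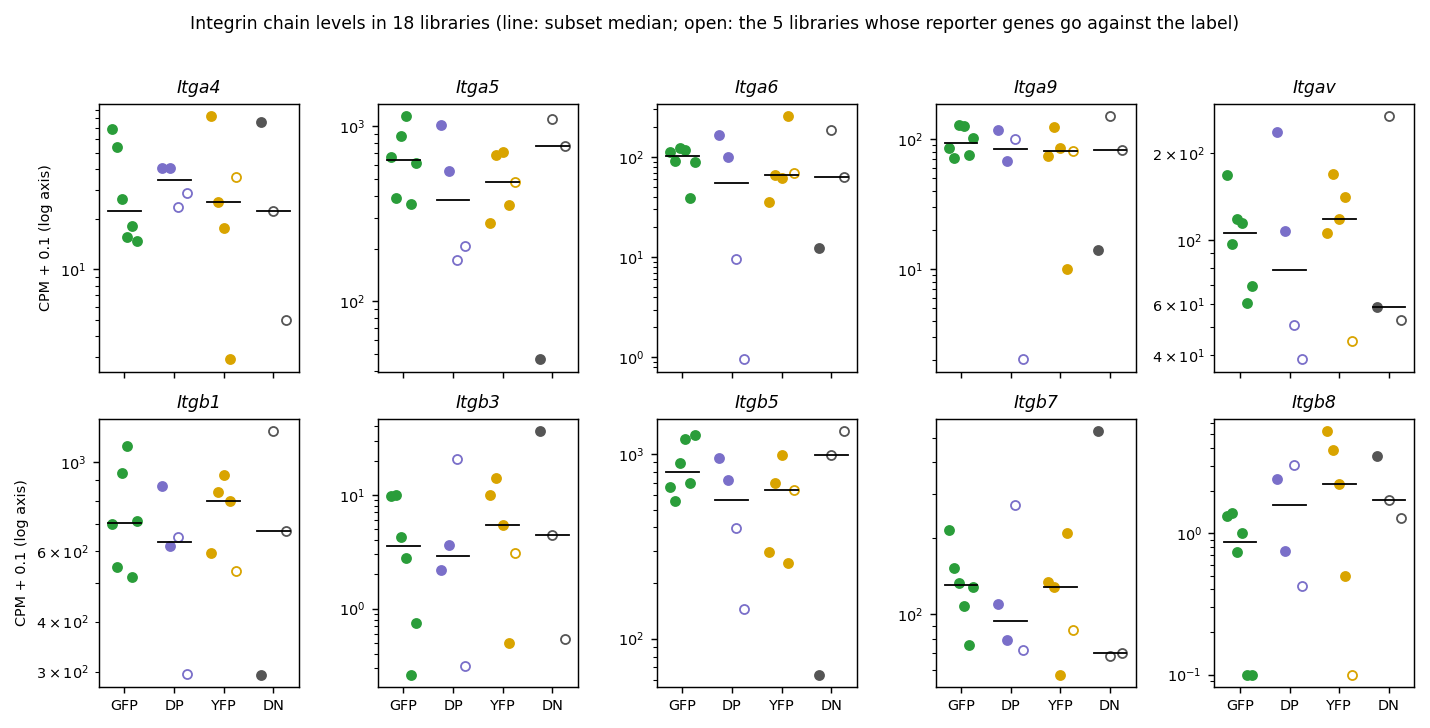
Level of each integrin chain in the 18 libraries, as CPM + 0.1 on a log axis, by sorted subset. Points are libraries, lines are subset medians, and open points are the 5 libraries whose reporter genes went against the label. The subsets overlap for each of the 10 chains.

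Itgb1 (mm10 chromosome 8, 128685654 to 128733200, plus strand), the shared partner of most alpha chains here, varied least. It ranged from 516 to 1094 CPM in GFP with a median of 705 CPM. It stood at 871, 617, 649.7 and 297 CPM in DP replicates 1, 2, 4 and 5, and at 594, 840.3, 927, 798 and 534 CPM in YFP replicates 1, 3, 4, 5 and 6. DN replicates 1, 3 and 6 held 295, 1195 and 672 CPM. The ranges overlapped, and the lowest and the highest library were both labelled DN. The standard deviation of log2(CPM + 1) over the libraries was 0.55 for Itgb1, against a median of 0.91 over all tested genes.

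Itga5 (chromosome 15, 103344286 to 103366763, minus strand), the alpha chain of the fibronectin receptor, followed a similar order of libraries. GFP libraries ranged from 359 to 1145 CPM with a median of 641 CPM. Levels in DP replicates 1, 2, 4 and 5 were 1013, 553, 172 and 207 CPM, and YFP replicates 1, 3, 4, 5 and 6 held 278, 685, 709.5, 356 and 478 CPM. The libraries labelled DP replicates 4 and 5 were thus below all GFP libraries, while DP replicates 1 and 2 were inside the GFP range. In DN replicates 1, 3 and 6 there were 46.4, 1096 and 769 CPM, so DN replicate 1 was the lowest of all libraries. Per kilobase of exon, the ratio of Itga5 to Itgb1 had a median of 0.697 over the 18 libraries. It ranged from 0.130 in DN replicate 1 to 0.963 in DP replicate 1.

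Itga6 (chromosome 2, 71745616 to 71858416, plus strand), a laminin receptor chain, spread most on the log2 scale among the 10, with a standard deviation of 1.73. It ranged from 39.1 to 124 CPM in GFP (median 102 CPM). In DP replicates 1, 2, 4 and 5 it stood at 167, 100.1, 9.43 and 0.853 CPM. The highest library was therefore 302-fold above the lowest, the one labelled DP replicate 5, where 8 reads were counted. YFP replicates 1, 3, 4, 5 and 6 held 35.4, 66.0, 61.1, 257 and 68.7 CPM, and DN replicates 1, 3 and 6 held 12.1, 187 and 62.7 CPM. YFP replicate 5 stood above all other libraries, and its alpha chains were 24.7% Itga6 per kilobase, against 0.20% to 9.14% in the others. That library also held the highest macrophage and monocyte sum, 117277 CPM with 9 of 9 markers, and a platelet sum of 1434 CPM with 6 of 8 markers, Gp1ba and Gp6 at 0. Pf4 alone gave 1250 CPM of that platelet sum. The part of these cells in the Itga6 level was not tested.

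Itga9 (chromosome 9, 118606690 to 118901003, plus strand), which with the beta-1 chain binds tenascin-C and osteopontin, lay between 67.9 and 151 CPM in 15 of the 18 libraries. GFP libraries ranged from 70.9 to 129 CPM (median 93.3 CPM). DP replicates 1, 2, 4 and 5 held 118, 67.9, 100.3 and 1.92 CPM, YFP replicates 1, 3, 4, 5 and 6 held 74.1, 124, 84.4, 9.97 and 80.6 CPM, and DN replicates 1, 3 and 6 held 13.9, 151 and 81.7 CPM. The 3 low libraries came from 3 different subsets. In the library labelled DP replicate 5, the neutrophil sum was 38590 CPM (7 of 7 markers), the mast cell and basophil sum 10205 CPM (7 of 8, Mcpt8 at 0) and the eosinophil sum 3880 CPM (4 of 4). Over the other libraries these sums ran from 9.0 to 1976 CPM, 1.8 to 331 CPM and 6.0 to 396 CPM. Itga6, Itga9 and Itgav were each lowest in that library, and the part of those cells in it was not tested.

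Itga4 (chromosome 2, 79255426 to 79333123, plus strand), the alpha chain of VLA-4 on monocytes and lymphocytes, was low throughout. It overlaps Cerkl on the opposite strand, and whether counting used strand is not given in the sources used here. GFP replicates 1 and 2 held 69.0 and 53.7 CPM, and GFP replicates 3 to 6 held 26.2, 15.5, 18.2 and 14.8 CPM. The first pair was therefore above the other 4, and the T cell sum was also 254 and 129 CPM in that pair against 14.7 to 29.8 CPM in the other 4. That pair also had reads for more genes, 20677 and 21448, against 14731 to 15730 in the other 4. DN replicate 1 had the highest T cell sum, 1369 CPM, with Itga4 at 76.1 CPM, and YFP replicate 1 had 128 CPM with the highest Itga4 level. The library labelled DP replicate 4 had a T cell sum of 333 CPM with Itga4 at 23.6 CPM. YFP replicate 5 had 139 CPM, from 6 of 8 markers with Lck and Trat1 at 0, and the lowest Itga4 level. The part of T cells, or of the number of genes detected, in the Itga4 level was not tested. The values in DP replicates 1, 2, 4 and 5 were 40.2, 40.2, 23.6 and 28.4 CPM, and YFP replicates 1, 3, 4, 5 and 6 held 82.8, 25.4, 17.7, 2.79 and 35.8 CPM. DN replicates 1, 3 and 6 held 76.1, 22.1 and 4.92 CPM. In GFP, YFP and DN the highest value came from replicate number 1, and in DP replicates 1 and 2 were equal at the precision given. The subset means were alike, from 32.9 ± 22.9 CPM in GFP (SD, n = 6) to 34.4 ± 37.1 CPM in DN (n = 3), with SDs that leave room for differences in either direction.

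Itgb7 (chromosome 15, 102215995 to 102231944, minus strand), a beta chain best known from lymphocytes, ranged from 75.5 to 215 CPM in GFP (median 131 CPM). DP replicates 1, 2, 4 and 5 held 109, 79.2, 270.5 and 72.3 CPM, and YFP replicates 1, 3, 4, 5 and 6 held 134, 129, 57.6, 209.9 and 86.6 CPM. DN replicates 1, 3 and 6 held 532, 68.1 and 69.9 CPM. DN replicate 1 stood above all others, and the libraries labelled DN replicates 3 and 6 stood below all 6 GFP libraries. DN replicate 1 also held the highest T cell sum, 1369 CPM (8 of 8 markers, led by Lck) against 14.7 to 333 CPM elsewhere, and the highest B cell sum, 1165 CPM (5 of 5, led by Cd79a) against 6.5 to 445 CPM. Their part in the Itgb7 level was not tested. The ratio of Itga4 to Itgb7 per kilobase was under 0.13 in every library, with a median of 0.0543.

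Itgav (chromosome 2, 83724397 to 83806916, plus strand), the alpha chain of the vitronectin receptors, ranged from 60.7 to 167 CPM in GFP (median 106 CPM). In DP replicates 1, 2, 4 and 5 the level was 236, 107, 50.8 and 38.6 CPM, YFP replicates 1, 3, 4, 5 and 6 held 105, 169, 118, 141 and 44.8 CPM, and DN replicates 1, 3 and 6 held 58.5, 269 and 52.8 CPM. The libraries labelled DP replicates 4 and 5 were below all GFP libraries, and DP replicates 1 and 2 were not. The variance of log2(CPM + 1) lay 2.22% between subsets, against a median of 13.1% over all tested genes.

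Itgb5 (chromosome 16, 33829665 to 33949338, plus strand), a beta chain that pairs with Itgav, was among the 2 most abundant members. GFP libraries ranged from 559 to 1264 CPM (median 794 CPM). For DP replicates 1, 2, 4 and 5 the values were 947, 725, 396 and 145 CPM, and YFP replicates 1, 3, 4, 5 and 6 held 295, 698, 984, 257 and 639 CPM. The DN libraries, replicates 1, 3 and 6, held 63.8, 983 and 1332 CPM. DN replicate 1 was the lowest library and the one labelled DN replicate 6 the highest, and in DP and YFP 2 libraries each lay below the GFP range. The fibroblast sum was 11657 CPM in the library labelled DP replicate 4, 10650 CPM in YFP replicate 1 and 239 to 1049 CPM in GFP (8 of 8 markers in each of the first 2). In YFP replicate 5 the fibroblast sum was 983 CPM, with Itgb5 at 257 CPM. Sums of 4309, 3939 and 3890 CPM stood beside Itgb5 at 983, 984 and 947 CPM in the library labelled DN replicate 3, YFP replicate 4 and DP replicate 1. The part of fibroblasts in the Itgb5 level was not tested.

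Itgb3 (chromosome 11, 104608000 to 104670476, plus strand), which also pairs with the platelet chain Itga2b, was scarce. GFP libraries ranged from 0.163 to 9.90 CPM (median 3.42 CPM). DP replicates 1, 2, 4 and 5 held 2.08, 3.50, 20.5 and 0.213 CPM, and YFP replicates 1, 3, 4, 5 and 6 held 9.82, 13.9, 5.29, 0.399 and 2.99 CPM. The 3 DN libraries held 36.3, 4.32 and 0.440 CPM. DN replicate 1 was highest, with a platelet sum of 31.9 CPM, near the lowest of all libraries (27.9 to 4093 CPM), and Itga2b at 2.08 CPM. Pf4 alone gave 27.2 CPM of that sum. In 3 libraries (GFP replicate 5, the one labelled DP replicate 5 and YFP replicate 6) Itgb3 had 3 reads or fewer.

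Itgb8 (chromosome 12, 119158022 to 119238802, minus strand), the chain that activates latent TGF-beta with Itgav, was the scarcest, with 696 reads over all libraries. GFP libraries ranged from 0 to 1.30 CPM (median 0.773 CPM). Among DP libraries, replicates 1, 2, 4 and 5 held 2.33, 0.651, 2.95 and 0.320 CPM, and YFP replicates 1, 3, 4, 5 and 6 held 5.19, 3.80, 2.14, 0.399 and 0 CPM. DN replicates 1, 3 and 6 held 3.40, 1.61 and 1.17 CPM. It was not detected in GFP replicates 5 and 6 and YFP replicate 6, where 0 reads allow up to 0.163, 0.151 and 8.96 CPM (3 reads, counting error only). The shallow YFP replicate 6 could therefore not have shown the level of any other library. The 3 highest YFP libraries were above all GFP libraries, and YFP replicate 5 was inside the GFP range. The summed fibroblast markers stood at 10650 CPM in YFP replicate 1, the highest library for Itgb8, and at 239 to 1049 CPM in GFP. In YFP replicate 3 and DN replicate 1, with Itgb8 at 3.80 and 3.40 CPM, they stood at 2460 and 2142 CPM. The part of fibroblasts in the Itgb8 level was not tested.

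**Figure D2:**
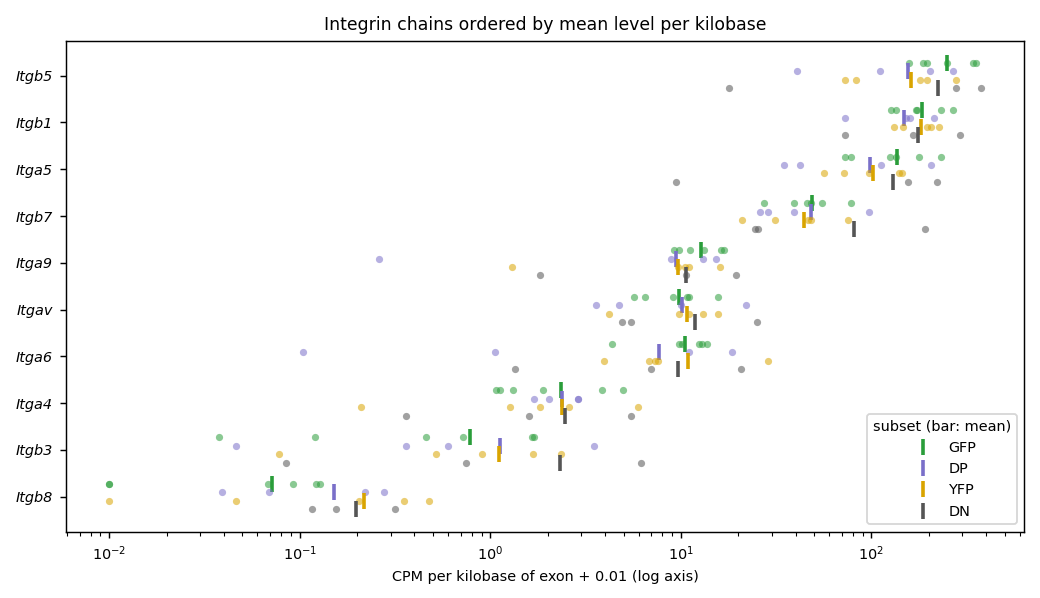
Level of each chain per kilobase of exon + 0.01 on a log axis, in the order of the mean over 18 libraries. Points are libraries and bars are subset means. By the mean, Itgb5, Itgb1 and Itga5 lead, Itgb7 stands alone below them, and Itgb3 and Itgb8 close the order.

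Compared per kilobase of exon, the chains fell into tiers that held in the means of each subset, but not in every library. The mean level over 18 libraries was 199 ± 106 CPM per kilobase for Itgb5 (SD, n = 18), 174 ± 59.4 for Itgb1 and 117 ± 65.2 for Itga5. Itgb7 followed at 52.7 ± 40.6 CPM per kilobase. Itga9, Itgav and Itga6 lay close together at 10.8 ± 5.38, 10.4 ± 6.06 and 9.85 ± 7.34 CPM per kilobase. Itga4 averaged 2.37 ± 1.67, Itgb3 1.20 ± 1.55 and Itgb8 0.141 ± 0.133 CPM per kilobase. Some neighbours in this order did not differ beyond their spread. Itgb5 was above Itgb1 in 11 of 18 libraries, Itga9 above Itgav in 10 and Itgav above Itga6 in 10. With the longest transcript in place of all exons, Itga6 came before Itgav and Itga9, with means of 20.6, 15.9 and 11.8 CPM per kilobase. Itgb1 was above Itga5, and Itgb7 above Itga9, in 18 of 18, and Itgb3 was above Itgb8 in 17. Between other tiers the order was less steady, with Itga5 above Itgb7 in 15 libraries, Itga6 above Itga4 in 14 and Itga4 above Itgb3 in 15. Over DN libraries the means of Itga4 and Itgb3 were 2.46 and 2.32 CPM per kilobase. Itgb5 was first in 11 libraries, Itgb1 in 6 and Itgb7 in 1, DN replicate 1.

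**Figure D3:**
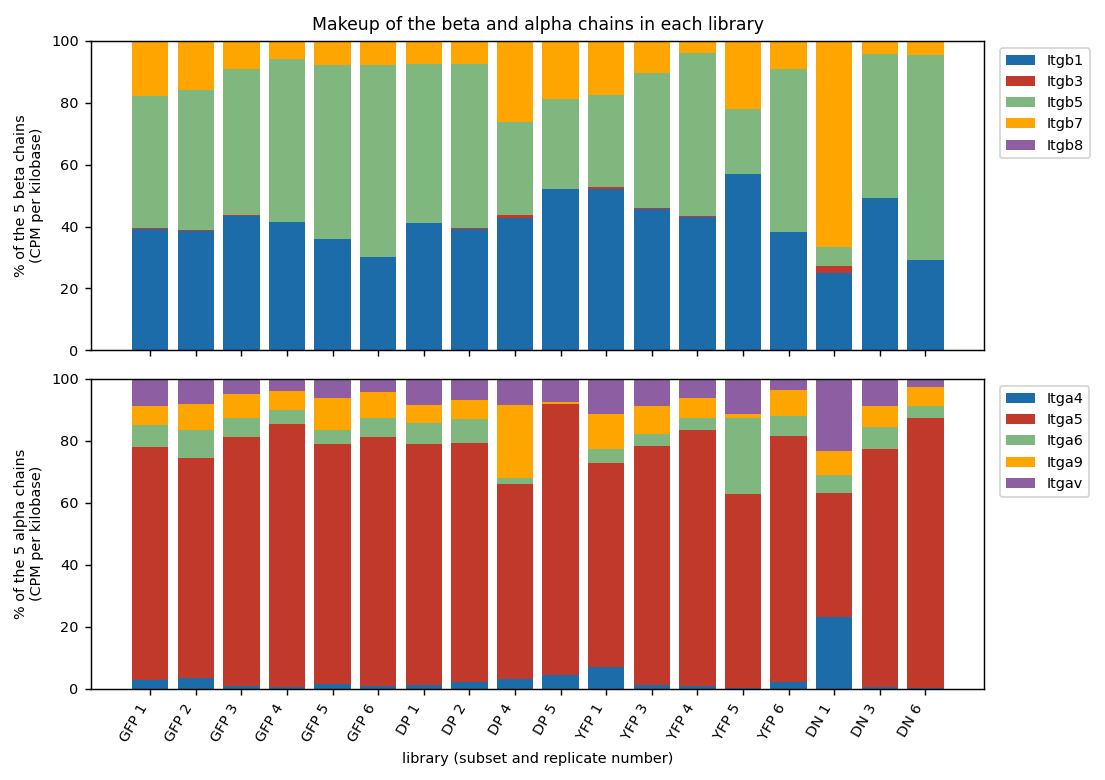
Share of each of the 5 beta chains (above) and 5 alpha chains (below) in their summed level per kilobase, by library. Itgb1 and Itgb5 make up most of the beta chains in 17 libraries, and Itgb7 makes up 66.5% of them in DN replicate 1.

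As shares of the 5 beta chains per kilobase, the mean of Itgb1 was 47.2% ± 7.38 over YFP libraries (SD, n = 5), 43.8% ± 5.67 over DP (n = 4), 38.2% ± 4.62 over GFP (n = 6) and 34.5% ± 12.9 over DN libraries (n = 3). Itgb5 averaged 39.9% ± 14.1, 40.9% ± 13.1, 50.9% ± 7.20 and 39.7% ± 30.6 in the same order. Shares of one total move against each other, so these are a single description and not separate results. Itgb7 made up 66.5% in DN replicate 1 and 3.95% to 26.2% in the others. Itgb3 reached at most 2.13% and Itgb8 0.17%. Among the alpha chains, Itga5 made up 62.6% to 87.6% in all libraries but DN replicate 1. There it made up 40.1%, with Itga4 and Itgav at 23.2% each.

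YFP cells were set against GFP cells, the single-positive subsets. Of the 10 chains, 4 were higher and 6 lower in YFP. The median of their log2 fold changes was -0.01, against 0.04 over all genes. Itgb8 lay highest, with a mean of 0.679 ± 0.576 CPM over the GFP libraries (SD, n = 6) and 2.31 ± 2.21 CPM over the YFP libraries (n = 5). Its log2 fold change was 1.90 ± 1.08 (SE, edgeR quasi-likelihood test with Benjamini-Hochberg adjustment, adjusted p = 0.804). Itgb5 lay lowest, with means of 881 ± 296 (GFP) and 575 ± 303 CPM (YFP) (-0.62 ± 0.58, edgeR adjusted p = 0.977). The test called 0 of the 10 members, and 0.0% of 17143 genes. No member had an unadjusted p under 0.05, as 1203 genes did. DESeq2 called 0 members (1.29% of genes), and limma voom with sample weights called 1 (2.69% of genes), Itgb8, with a log2 fold change of 2.78 (adjusted p = 0.0353). Its weight for YFP replicate 5, where Itgb8 stood at 0.399 CPM, was 0.0697. The weights of YFP replicates 1, 3, 4 and 6 were 0.522, 2.69, 2.54 and 1.10, so that call made little use of YFP replicate 5.

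DP cells were set against GFP cells, which differ in the Cd11c reporter. Here also 4 chains were higher and 6 lower in DP, with a median of -0.17 against 0.20 over all genes. Itgb8 lay highest again, at 1.56 ± 1.28 CPM in DP (n = 4), with a log2 fold change of 1.21 ± 1.12 (SE). Itgb5 lay lowest, at 553 ± 354 CPM in DP, with -0.67 ± 0.62. The edgeR adjusted p was above 0.99 for both. The test called 0 members and 0.198% of genes. Without the 4 libraries against their labels Itgb5 turned to 0.22, and without YFP replicate 6 as well it was -0.084. DESeq2 and limma voom also called 0 members (2.94% and 20.1% of genes), and 0 members had an unadjusted p under 0.05, as 1172 genes did.

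YFP cells were set against DP cells, which share the Cd11c reporter. In YFP 8 chains were higher and 2 lower, with a median of 0.05 against -0.09 over all genes. Itgb8 lay highest (0.69 ± 1.19) and Itgb7 lowest (-0.10 ± 0.60), the latter at 123 ± 57.7 CPM in YFP and 133 ± 93.2 CPM in DP. The signs of both rested on single libraries. Itgb8 stood at -0.022 without YFP replicate 1, and Itgb7 at 0.51 without the library labelled DP replicate 4 and 0.10 without YFP replicate 4. The edgeR test called 0 members and 0.0% of genes, DESeq2 called 0 members and 0.952% of genes, and limma voom called 0 of either. No member had an unadjusted p under 0.05, as 1154 genes did. A block for the replicate number turned Itgb7 to 0.18 and called no member.

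**Figure D4:**
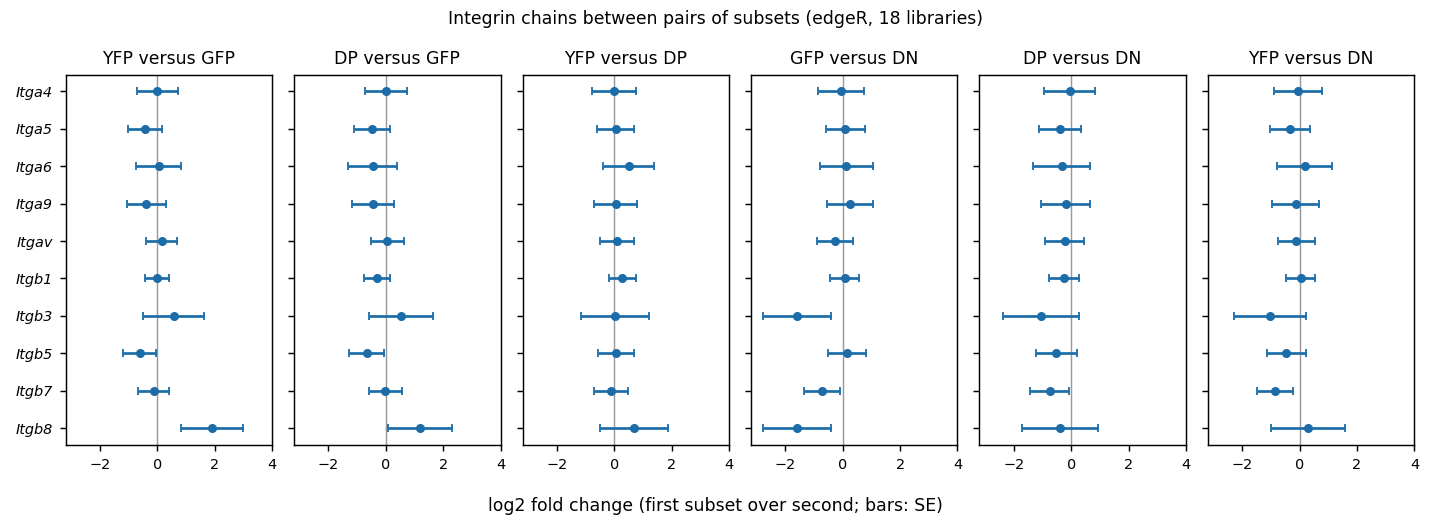
Log2 fold change of each chain between pairs of subsets, with its standard error, from the fit over 18 libraries. The bars of most chains cross 0, and Itgb3 and Itgb8, the scarcest chains, have the widest bars.

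DN cells, which carry neither reporter, were compared with the other subsets. GFP against DN gave 5 chains higher and 5 lower (median -0.00, and 0.04 over all genes), from Itga9 at 0.25 ± 0.80 to Itgb8 at -1.60 ± 1.19. DP against DN gave 0 higher and 10 lower (median -0.36, and 0.21 over all genes), from Itga4 at -0.06 ± 0.88 to Itgb3 at -1.05 ± 1.32. YFP against DN gave 3 higher and 7 lower (median -0.13, and 0.06 over all genes), from Itgb8 at 0.30 ± 1.29 to Itgb3 at -1.03 ± 1.26. These comparisons share the 3 DN libraries, so their directions are not independent. The edgeR test called 0 members and 0.0% of genes in each, and 0 members had an unadjusted p under 0.05, as 231, 464 and 461 genes did. DESeq2 called 0 members (0.0%, 0.209% and 0.0401% of genes) and limma voom 0 members and 0.0% of genes. Without DN replicate 1, Itga9 in GFP against DN turned to -0.28, Itga4 in DP against DN to 1.26, and Itgb3 to 1.404 in DP and 1.46 in YFP against DN. Itga4 in DP against DN also turned without the library labelled DP replicate 4, to 0.08. Itgb8 in YFP against DN turned to -0.45 without YFP replicate 1 and to -0.06 without the library labelled DN replicate 3.

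The comparisons were also fitted within numbers 1 and 2 (2 GFP, 2 DP, 1 YFP and 1 DN library) and within numbers 3 to 6 (4 GFP, 2 DP, 4 YFP and 2 DN libraries). All DP and DN libraries of numbers 3 to 6 are the 4 that went against their labels. The number sets also differ in the genes with a count, 19245 to 21972 in numbers 1 and 2 and 13150 to 18961 in numbers 3 to 6. In numbers 1 and 2, DN replicate 1 and YFP replicate 1 are each alone in their group and were assumed to vary like the GFP and DP libraries, so calls that involve them describe those single libraries and not the subsets. Itga5, Itga6, Itga9 and Itgb5 were higher, and Itgb3 and Itgb7 lower, in GFP and in DP than in DN replicate 1, 6 members in each comparison (12.5% and 14.1% of genes called). In GFP the log2 fold changes were 3.30 for Itga5, 2.86 for Itga6, 2.28 for Itga9, 3.05 for Itgb5, -2.10 for Itgb3 and -1.74 for Itgb7, with edgeR adjusted p from 1.25e-05 to 0.00291. YFP replicate 1 and DN replicate 1, 1 library against 1, have no spread of their own. The 5 members and 9.84% of genes past the threshold there are therefore read neither as a difference between the subsets nor as likeness. The log2 fold changes for Itga5, Itga9, Itgb5, Itgb3 and Itgb7 were 2.54, 2.37, 2.17, -1.93 and -2.03 (YFP against DN). For YFP replicate 1 against DP replicates 1 and 2, 3 members passed (8.15% of genes), Itga6 (-1.82), Itgb5 (-1.40) and Itgb3 (1.93). Itgb3 was the 1 member called between DP and GFP (1.33% of genes), at -1.76 ± 0.36 (SE, edgeR adjusted p = 0.00257), with 2.08 and 3.50 CPM in DP against 9.73 and 9.90 CPM in GFP. Its direction was the opposite within numbers 3 to 6 (2.55 ± 1.54) and over all 18 libraries (0.54 ± 1.12). The test of any difference called 6 members (18.1% of genes), and YFP against GFP and the interaction called 0 (7.83% and 3.7% of genes).

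Within numbers 3 to 6, 0 members were called in any of these tests. The shares of genes called there were 1.33% for DP against GFP, 0.0637% for YFP against DP, 0.00708% for DP against DN, 1.17% for any difference and 0.0% for the rest. The log2 fold changes of the libraries labelled DP against GFP were -1.96 ± 0.57 for Itga5, -4.04 ± 1.12 for Itga6 and -1.83 ± 0.62 for Itgb5, which did not pass the test (edgeR adjusted p = 0.107, 0.0918 and 0.175). Between DP and DN, Itga5 turned from 3.95 ± 0.57 within numbers 1 and 2 to -2.28 ± 0.62 within numbers 3 to 6 (edgeR adjusted p = 2.09e-06 and 0.229), and Itga6 from 3.33 ± 0.53 to -4.50 ± 1.20. The other calls did not hold within numbers 3 to 6 either. For YFP against DP, Itga6 was 4.32, Itgb5 1.23 and Itgb3 -0.88 there, each opposite in sign to its value within numbers 1 and 2. For GFP against DN, Itga5 was -0.33, Itga6 -0.45, Itga9 -0.13, Itgb5 -0.20 and Itgb7 0.68, also opposite in sign, and Itgb3 was -0.33. The replicate number and the libraries against their labels cannot be told apart here.

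Over all 4 subsets at once, edgeR's test of any difference called 0 members and 0.332% of genes, and the interaction of the reporters called 0 members and 0.0% of genes. No member had an unadjusted p under 0.05 in either, as 1193 and 565 genes did, and the other tools called 0 members (DESeq2 2.96% and 0.108% of genes, limma voom 6.51% and 0.00583%). No chain had all libraries of one subset above or below all of another, in any of the 6 comparisons. Over all genes, the shares that did were 0.251% higher and 0.583% lower in YFP than in GFP, 0.548% and 0.77% in DP than in GFP, and 0.367% and 0.426% in YFP than in DP. Against DN they were 0.636% higher and 0.846% lower in GFP, 0.455% and 0.98% in DP, and 0.227% and 0.723% in YFP. The share of variance between subsets ran from 1.91% for Itgb7 to 19.9% for Itgb8. Missing the threshold does not show that the subsets were alike, since standard errors over the 10 chains ran from 0.42 log2 units (Itgb1, YFP against GFP) upward, and exceeded 1 for the scarce chains Itgb3 and Itgb8.

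Other genes of integrin biology were read as lists, chosen with earlier results of these data known. Over all genes edgeR called 0.198% in DP against GFP, 0.0% in each other comparison and 0.332% in the test of any difference. A list without calls is therefore near the share of all genes. Of the 9 fibronectin and other RGD ligands, 0 were called in any of the 6 comparisons, and 1, Mfge8, in the test of any difference. Mfge8 encodes MFG-E8, which bridges apoptotic cells to the alpha-v receptors. It ranged from 62.1 to 125 CPM in GFP (median 99.7 CPM). DP replicates 1, 2, 4 and 5 held 263, 117, 316 and 267 CPM, YFP replicates 1, 3, 4, 5 and 6 held 408, 408, 1220.4, 2276 and 137 CPM, and DN replicates 1, 3 and 6 held 55.5, 104 and 429.5 CPM. All YFP libraries lay above all GFP libraries, as 0.251% of genes did, with 46 reads behind the value of YFP replicate 6. The edgeR adjusted p for any difference was 0.0392, and for YFP against GFP alone it was 0.0744 (log2 fold change 3.22 ± 0.61). The call was lost without any one of GFP replicates 1 to 4, YFP replicate 5 and the libraries labelled DP replicates 4 and 5, with adjusted p of 0.0181 to 0.109 over all single libraries left out. It was also lost without the 4 libraries against their labels (0.0768, but 0.0211 without YFP replicate 6 as well), with a term for the number sets (0.147), within numbers 3 to 6 (0.0794) and under a block for the replicate number (0.999).

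Among the other ligands, Spp1, osteopontin, averaged 20846 ± 18124 CPM over YFP libraries (SD, n = 5), 11863 ± 15086 over DN, 9045 ± 7081 over GFP and 6147 ± 3196 over DP libraries. Fn1, fibronectin, averaged 1137 ± 627, 959.8 ± 990.4, 835 ± 251 and 1008 ± 845 CPM in the same order. Both have SDs that span the differences between subsets. Thbs1, thrombospondin-1, ran the other way, at 627 ± 522 CPM over YFP, 832 ± 596 over DN, 2714 ± 1280 over GFP and 3190 ± 3817 over DP libraries. Its log2 fold change in YFP against GFP was -2.12 ± 0.74 (SE, edgeR adjusted p = 0.507), which did not pass the test. In the laminin list, 6 of 6 chains were higher in DP than in GFP (median 1.82, and 0.20 over all genes), with 0 called. The fibroblast sum also differed, at 1230 to 11657 CPM in DP and 239 to 1049 CPM in GFP, and its part was not tested. Vcam1, the endothelial ligand of Itga4, averaged 103 ± 50.7 CPM in GFP and 126 ± 133 CPM in DP, and Madcam1, that of the Itga4 and Itgb7 pair, stood under 2 CPM in every library.

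Of the 11 other integrin chains outside beta-2, 10 were higher than in GFP both in YFP (median 0.92) and in DP (median 1.14), with 0 called. The medians over all genes were 0.04 and 0.20, and 0.0% and 0.198% of genes were called. These comparisons share the GFP libraries. Itgae, the other partner of Itgb7, stood at 63.5, 66.7, 3.21, 57.2 and 5.97 CPM in YFP replicates 1, 3, 4, 5 and 6 and at 0.163 to 6.28 CPM in GFP, so 2 YFP libraries were inside the GFP range. Itgae is also 1 of the 7 dendritic cell markers, of which 7 were higher in YFP than in GFP with 0 called (median 1.52, and 0.04 over all genes). Their sum ran from 74.6 to 584 CPM in YFP (median 420 CPM) and 33.9 to 321 CPM in GFP (median 75.1 CPM). Itga2b, a platelet chain, ran from 2.99 to 103 CPM in YFP and 0.163 to 3.004 CPM in GFP. The platelet sum ran from 66.4 to 1434 CPM in YFP (median 224 CPM) and 77.4 to 543 CPM in GFP (median 203 CPM). YFP replicate 5 alone was above the GFP range. Most of the highest sum in each subset was the single gene Pf4, at up to 1250 CPM in YFP and 534 CPM in GFP. Of the 7 platelet markers tested, Itga2b among them, 7 were higher in YFP than in GFP (median 3.93, and 0.04 over all genes), with 0 called. The test of any difference called 1 of them, and 0.332% of genes. Itga8, a chain of smooth muscle and fibroblasts, stood at 16.97, 18.9, 208 and 52.2 CPM in DP replicates 1, 2, 4 and 5 and at 0.762 to 59.1 CPM in GFP. The high value is that of the library labelled DP replicate 4. The smooth muscle sum was 117 and 292 CPM in DP replicates 1 and 2, inside the GFP range of 77.1 to 328 CPM, and 2322 and 2859 CPM in the libraries labelled DP replicates 4 and 5, with 0 markers called. The part of these cells in the levels of the chains was not tested. On the leukocyte side, Itgb2 averaged 816 ± 244 CPM over DP libraries and between 1091 ± 284 (GFP) and 1207 ± 499 CPM (YFP) over the other subsets, and 0 of 5 chains in the beta-2 list were called.

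The machinery that links these chains to actin was also without calls in the 6 comparisons and the test of any difference, where 0.0% to 0.332% of all genes were called. Among 9 activators, Fermt3, the kindlin of blood cells, averaged 481 ± 105 CPM in GFP and 261 ± 172 CPM in DP, and Tln1, talin, 420 ± 205 and 459 ± 379 CPM. Among 16 focal adhesion genes, 11 were higher in YFP and 12 in DP than in GFP (medians 0.30 and 0.29, and 0.04 and 0.20 over all genes). Of 6 genes for latent TGF-beta and its carriers, which Itgb8 acts on, Lrrc33 (the table's name for Nrros, a carrier on macrophages) averaged 599 ± 180 CPM in GFP and 394 ± 51.2 CPM in DP, and Tgfb1 162 ± 16.8 and 107 ± 59.9 CPM. No member of either list passed the test.

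Genes with the most similar pattern over the 18 libraries were sought among 15084 named genes by Pearson's r of log2(CPM + 1), given as a description since the libraries share depth and cell makeup. The closest to Itga5 were Tmbim1, Havcr2 and Cxcl16 (r of 0.96, 0.95 and 0.95). Havcr2 encodes the receptor TIM-3 and Cxcl16 a chemokine that also takes up oxidized lipoprotein. For Itgb5 they were Atp6v0a1, a proton pump subunit, Slc35e4 and Socs3, an inhibitor of cytokine signalling (0.95, 0.94 and 0.94). For Itgb1 they were Sgpl1, the sphingosine phosphate lyase, Ctnna1, alpha-catenin, and Fnip2 (0.96, 0.95 and 0.95). Itga9 was closest to Osbpl1a, a sterol-binding protein, Eps8, an actin regulator, and Rps6kc1 (0.98, 0.97 and 0.96). Itga6 was closest to the RNA sensor gene Tlr7 (0.94), Itgav to Rab43 (0.93), and Itga4 to Etnk1 (0.93).

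The remaining 3 chains followed other genes. Itgb7 was closest to Tox, a transcription factor of developing and exhausted T cells, Rab27a and Arhgef1 (0.89, 0.89 and 0.88), all highest in DN replicate 1. Without that library the values were 0.84, 0.81 and 0.79. Itgb3 was closest to Traf4, Zeb1 and Ablim1 (0.92, 0.91 and 0.91), also highest in DN replicate 1, and Itgb8 to Gpc6, a glypican, Akap2 and Epha3, an ephrin receptor (0.90, 0.90 and 0.89). Gpc6 and Akap2 were highest in YFP replicate 1, as Itgb8 was, and Epha3 in the library labelled DP replicate 4. Among the members themselves, Itga5 and Itgb5 had the highest r, 0.91, then Itga5 and Itgb1 with 0.83 and Itga9 and Itgb5 with 0.79. Itgb3 and Itgb8 had 0.75. The lowest was Itga5 with Itgb7 at -0.64, which was -0.33 without DN replicate 1.

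**Figure D5:**
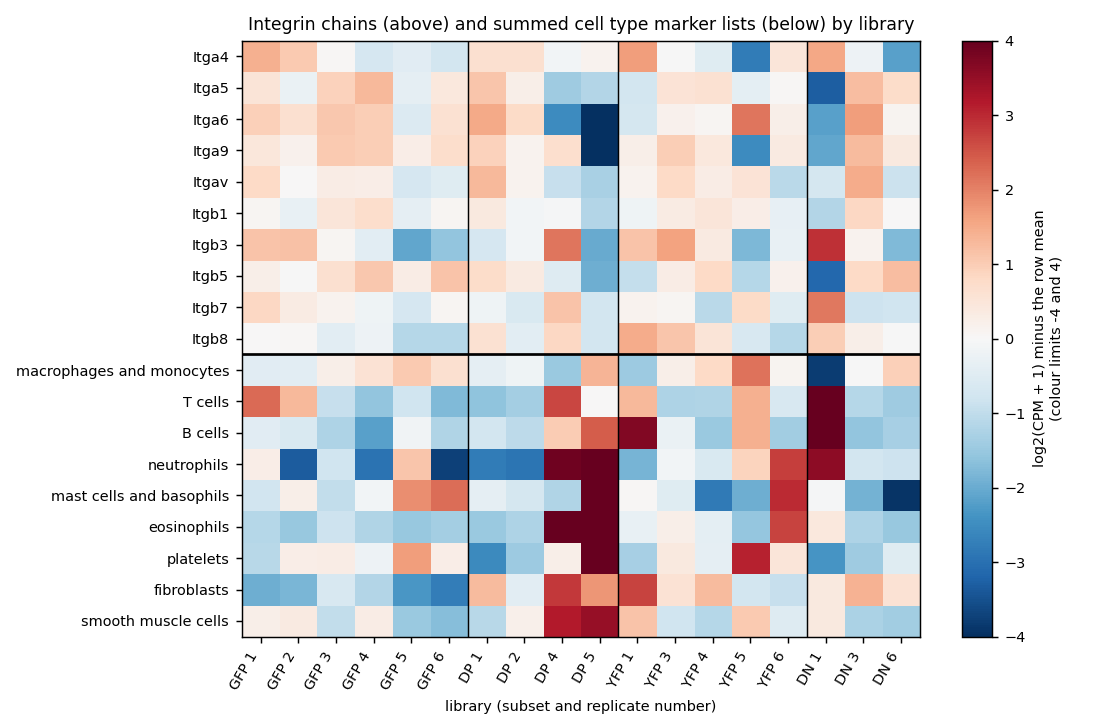
Log2(CPM + 1) of each chain and of the summed marker lists in each library, minus the row's mean, with colours limited at -4 and 4. DN replicate 1 is low for Itga5, Itgb5 and the macrophage sum and high for Itgb7, Itgb3 and the lymphocyte sums, and the library labelled DP replicate 5 is low for Itga6 and Itga9 and high for the granulocyte sums.

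As the map of chains and marker sums by library shows, the extremes gathered in few libraries. DN replicate 1 held the lowest level of 3 members (Itga5, Itgb1 and Itgb5) and the highest of 2 (Itgb3 and Itgb7). The library labelled DP replicate 5 held the lowest of 3 (Itga6, Itga9 and Itgav), and the library labelled DN replicate 3 the highest of 3 (Itga9, Itgav and Itgb1). These 3 libraries held 11 of the 20 extremes. DN replicate 1 also had the lowest dissociation sum, 10619 CPM against 17401 to 40007 CPM elsewhere. That list is meant to read the handling of the tissue, and whether it did so here was not tested. The part of cell makeup and handling in the levels of the chains was not tested.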

How the data were processed

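RNA of 18 libraries of sorted immune cells was analysed. The deposited table holds unnormalized whole-number counts by gene symbol. The submitters' processing notes name TopHat 1.4.1, SAMtools, HTSeq 0.7.1 and the build mm10. Which annotation and strand setting were used is not given in the sources used here. Reads of overlapping genes may therefore be mixed. Columns were matched to samples by name, and the labels' sorted subset gave the groups.

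The test was edgeR 4.0.16 in R 4.3.3 (filterByExpr by subset, TMM scaling, robust quasi-likelihood fit, 1 mean per subset, 17143 genes, common dispersion 0.890), with Benjamini-Hochberg adjustment over all genes tested and a threshold of 0.05. DESeq2 1.42.0 and limma 3.58.1 (voom) were alternatives. The fits were checked on simulated counts. CPM used TMM-scaled sizes, and logs of CPM a pseudocount of 1. Lengths and coordinates are from GENCODE vM21 (mm10), and sequences from RefSeq. Lengths are of all exons of a gene. Depth per library was 289166 to 27742113 counts, and limits for 0 reads cover counting error only. Libraries of one subset differed beyond counting error in every pair (lowest chi-square over its degrees of freedom 16.4).

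Same-numbered libraries were checked for shared deviations from their subset means. Correlations were above 0.1 in all pairs for DP and GFP (0.16 to 0.42), YFP and DP (0.16 to 0.34) and GFP and DN (0.57 to 0.67), and not for YFP and GFP (-0.02 to 0.51), YFP and DN (-0.09 to 0.49) or DP and DN (1 pair, -0.22). The labels do not say what a number marks.

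The members, the 23 lists (161 of 162 entries matched, 3 by older symbols) and the rules were chosen with earlier results of these data known. Fold changes are named for the highest and the lowest member in each comparison and for members called. From a pathway list up to 3 genes with the highest mean CPM and any called gene may be named, and from a marker list 2. The 3 genes most like a member were sought leaving out predicted genes, pseudogenes and receptor segments. Alternatives were other scaling, no filter, other tools, a replicate block, a term for or a split by number set, and leaving out libraries (1 set of 5 was chosen after seeing the data).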

Additional observations from a re-analysis of the deposited data

Results flagged for a closer look

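Among 30 groups of 4 to 6 libraries (10 members in GFP, DP and YFP), 2 held a library whose gap to the next was large for the range of its group, by Dixon's criterion at the 95% level. Chance flags about 1 in 20 such groups. Itga6 stood at 257.5 CPM in YFP replicate 5, against 35.4 to 68.7 CPM in the other 4 YFP libraries. Itgb3 stood at 20.5 CPM in the library labelled DP replicate 4, against 0.213 to 3.50 CPM in the other 3 DP libraries, and Itga2b, its platelet partner, stood at 42.7 CPM there and at 0.427 to 1.63 CPM in the other 3. Of the 8 platelet markers, 5 (Itga2b among them) were higher in that library than in each of the other 3. Pf4 stood at 132 CPM there, 24.8 and 51.6 CPM in DP replicates 1 and 2 and 4079 CPM in the library labelled DP replicate 5. The part of platelets in the Itgb3 level was not tested. No interaction of the reporters passed the test for a member.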

How the results depend on the processing

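Over 29 alternatives and 8 tests, fewer where a fit could not give a test, the count of members called stayed at 0 in 223 cases and moved in 7. Leaving out 1 library gave 0 in each. Limma voom called 1 for YFP against GFP, Itgb8. Numbers 1 and 2 alone, with 1 YFP and 1 DN library, called 1 (DP against GFP), 3 (YFP against DP), 6 (GFP against DN), 6 (DP against DN), 5 (YFP against DN) and 6 (any difference). The replicate block called 0 members in each comparison. For the 12 named fold changes, 317 alternative values kept their direction and side of the threshold, 27 reversed and 4 passed the threshold (Itgb8 by voom, and Itga9 and Itgb3 on numbers 1 and 2), and all 260 alternatives for subset means moved by less than 1 SD.

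Itgb5 in DP against GFP reversed to 0.52 on numbers 1 and 2 and to 0.22 without the 4 libraries against their labels. Itgb7 in YFP against DP reversed to 0.18 with the replicate block, 0.60 on numbers 1 and 2, 0.42 without those 4 libraries and 0.50 without YFP replicate 6 as well (chosen after seeing the data), and ran from -0.57 to 0.51 with 1 library left out. Itgb8 in YFP against DP ran from -0.022 (without YFP replicate 1) to 1.20. Itga9 in GFP against DN reversed to -0.13 on numbers 3 to 6 and ran from -0.28 to 1.05 with 1 library left out. For DP against DN, Itga4 reversed to 1.07 (voom), 0.72 (replicate block), 0.18 (number-set term) and 0.95 (numbers 3 to 6), and ran from -0.57 to 1.26, and Itgb3 reversed to 2.22 (numbers 3 to 6) and ran from -2.82 to 1.404. For YFP against DN, Itgb8 reversed to -0.13 (replicate block), -0.78 (without the 4 libraries) and -0.21 (without YFP replicate 6 as well) and ran from -0.45 to 0.82, and Itgb3 reversed to 1.19 (voom) and 1.34 (numbers 3 to 6) and ran from -1.85 to 1.46. Some of these fits hold fewer libraries, and otherwise the cause was not tested. Mfge8 lost its call in 11 of 28 alternatives.

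Depth limits Itgb8 and Itgb3 most, with 696 and 3456 reads over all libraries. An alternative that leaves 1 library in a group assumes that it varies like the other groups.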
